A study of Homo sapiens with 9 samples.

Results

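The 42 genes described here belong to the integrated stress response and to the amino acid supply that it controls. They were listed by name by their known function, and all 42 were found in the deposited table of 58735 genes. The list was made with earlier results of these data known, so the member counts below do not come from a list blind to the data. In this response, kinases that sense different stresses phosphorylate the translation factor eIF2. General protein synthesis then slows, while the mRNA of the transcription factor ATF4 is translated more. ATF4, which pairs with C/EBP proteins on DNA, switches on genes that make, import, and load amino acids, and colon cancer cells use the same genes to supply growth.

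The cells were HCT116, an established human colorectal carcinoma line, in 3 groups of 3 libraries. WT cells were the wild-type line. Cells labelled A20-KO were made with a lentiviral CRISPR vector against A20, a ubiquitin-editing enzyme encoded by TNFAIP3 that restrains inflammatory signalling, and were selected with puromycin. Cells labelled A20-OE are those A20-KO cells with an A20 rescue vector, so they also carry the CRISPR vector. The labels name no added agent, and the sources used here say neither whether the edited cells were 1 clone nor whether the 3 libraries of a group came from separate cultures. The p-values therefore measure the spread between these libraries, which may be technical.

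The libraries held between 23406222 and 24963691 reads assigned to genes, as recovered from FPKM (fragments per kilobase of transcript, scaled to library depth). The summed level of 8 epithelial markers, 6 of them with a mean above 1, was 1092 to 1472 FPKM in WT, 1697 to 2241 in A20-KO, and 1687 to 2231 in A20-OE. KRT8, KRT18, KRT19, and CDH1 had higher group means in A20-KO and A20-OE than in WT, EPCAM had lower ones (129.6 FPKM in WT, 117 in A20-KO, and 105 in A20-OE), and the intestinal markers VIL1 and LGR5 were near 0. Another intestinal marker, CDX2, had 3.55 to 7.16 FPKM, with group means of 5.73 in WT, 5.56 in A20-KO, and 5.88 in A20-OE. The summed level of 6 leukocyte markers was at most 0.385 FPKM. The summed level of 6 fibroblast markers was 4.60 to 5.86 FPKM in WT, 12.6 to 15.1 in A20-KO, and 11.1 to 12.3 in A20-OE, and only 1 of them had a mean above 1, while COL1A2, DCN, and LUM were at or near 0. Reads from the mitochondrial genome took 7.52% to 10.1% of the WT libraries, 9.18% to 11.9% of the A20-KO libraries, and 11.97% to 14.0% of the A20-OE libraries. Their part in the results was not tested, apart from the scaling without mitochondrial genes in the closing section.

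TNFAIP3 mRNA was not lower in the cells labelled A20-KO. Its FPKM was 0.869, 0.800, and 0.736 in WT, 1.93, 2.16, and 1.04 in A20-KO, and 58.7, 66.5, and 56.5 in A20-OE. The log2 change from WT to A20-KO was 0.95 (SE 0.23, adjusted p = 0.0182), and it was no longer past the threshold without WT replicate 2 (0.0544), A20-KO replicate 1 (0.0701), or A20-KO replicate 2 (0.0570). Here and below such libraries were left out one at a time, and the brackets hold the adjusted p without them. The paper shows the A20 level of its knockout and rescue cells in a figure, whose values were not used here. An edit that stops the protein need not lower the mRNA, so the TNFAIP3 mRNA does not check the A20-KO label. Every direction below is that of the libraries labelled A20-KO. The rise to A20-OE was 5.13 (SE 0.23, adjusted p = 2.13e-05) on the log2 scale.

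Most members that changed were lower. From WT to A20-OE the members that fell included the serine synthesis enzymes PHGDH, PSAT1, and PSPH and 4 of the 6 amino acid transporters. Of the 8 genes of tRNA charging and export, 4 fell there. From WT to A20-KO only PSAT1 of those enzymes and SLC7A5 of the transporters fell. ATF3, ATF5, and TRIB3 fell in at least 1 comparison, and CEBPB rose. In all, 20 members passed the test in no comparison, among them the kinases, ATF4, DDIT3, CEBPG, ASNS, SHMT2, PYCR1, SLC7A1, SLC38A2, AARS, SARS, and XPOT. In bulk libraries fewer cells that express a gene and less of its RNA per cell cannot be told apart. "Rose" and "fell" are used for a Benjamini-Hochberg adjusted p under 0.05 in limma on log2(FPKM + 0.1), adjusted over all 21636 genes whose mean FPKM reached 0.1. Gene positions are on GRCh38, by match of the table with GENCODE 29. All changes below are log2 changes on this scale, on which low-level genes appear to move less than they do.

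The filter kept 40 of the 42 members. NUPR1, a stress-induced cofactor, had 3 to 9 reads in a library, and CBS, the first enzyme of transsulfuration, had 0 to 7. CBS also has a nearly identical copy, CBSL, with at most 6 reads, so its reads are uncertain. Of the 40, 39 had a mean FPKM of at least 1, 29 of at least 10, and 3 of at least 100.

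In the libraries labelled A20-KO, 10 of the 40 members fell from WT and 2 rose, against 11% and 11.3% of all genes tested. The members that fell were ATF3, ATF5, TRIB3, PSAT1, MTHFD2, ALDH18A1, SLC7A5, WARS, EPRS, and MARS. CEBPB and CTH rose. ATF5 and CEBPB also changed by more than 2-fold, and 6.99% of all genes did so. In 23 members the 3 values of one group did not overlap the 3 of the other, against 38.1% of all genes. The members' median log2 change was -0.26, and that of all genes was -0.0050. Without A20-KO replicate 1 the counts were 6 lower and 1 higher. The count past 2-fold was 1 without WT replicate 1 or any 1 of the A20-KO replicates.

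Between A20-KO and A20-OE, again 10 of 40 members fell, and none rose, against 4.54% and 4.43% of all genes. Those that fell were ATF5, PHGDH, PSAT1, PSPH, CHAC1, SLC3A2, SLC1A4, SLC1A5, WARS, and MARS. At an unadjusted p under 0.05, 2 members (ATF3 and PPP1R15B) were higher, and limma-voom on the recovered reads called 1. PHGDH alone passed 2-fold, against 2.39% of all genes, and 24 members did not overlap, against 35.4%. The median was -0.14 for the members and 0.013 for all genes. The count of 10 changed when single libraries were left out. It was 4 without A20-KO replicate 1, A20-OE replicate 1, or A20-OE replicate 2, and 5 without A20-KO replicate 3. PHGDH, PSAT1, WARS, and MARS passed under all 20 alternatives that were run. Over all genes this comparison had 958 genes higher and 982 lower, a split that became 736 and 1422 when libraries were scaled to total recovered reads. The members that fell numbered 12 without WT replicate 1, which also gave 1 member higher (PPP1R15A), and 2 members passed 2-fold without A20-KO replicate 2.

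Between WT and A20-OE, 16 members fell and 2 rose, against 15.4% and 15.7% of all genes. GARS and YARS passed in this comparison and in neither of the others, though GARS came near the threshold from WT to A20-KO (adjusted p = 0.0578). CEBPB and CTH were the members that rose. The members past 2-fold numbered 6 (ATF5, PSAT1, SLC3A2, SLC1A4, SLC1A5, and WARS), against 11.9% of all genes, and 26 did not overlap, against 45.3%. The median was -0.26 for the members and 0.025 for all genes. The count that rose was 1 without WT replicate 2 or any 1 of the A20-OE replicates. These 3 comparisons share libraries, so their values stand side by side here and are not independent of each other. With 3 libraries a group, an exact two-sided permutation test of a single gene cannot go below p = 0.1, and none was used for a call.

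**Figure D1:**
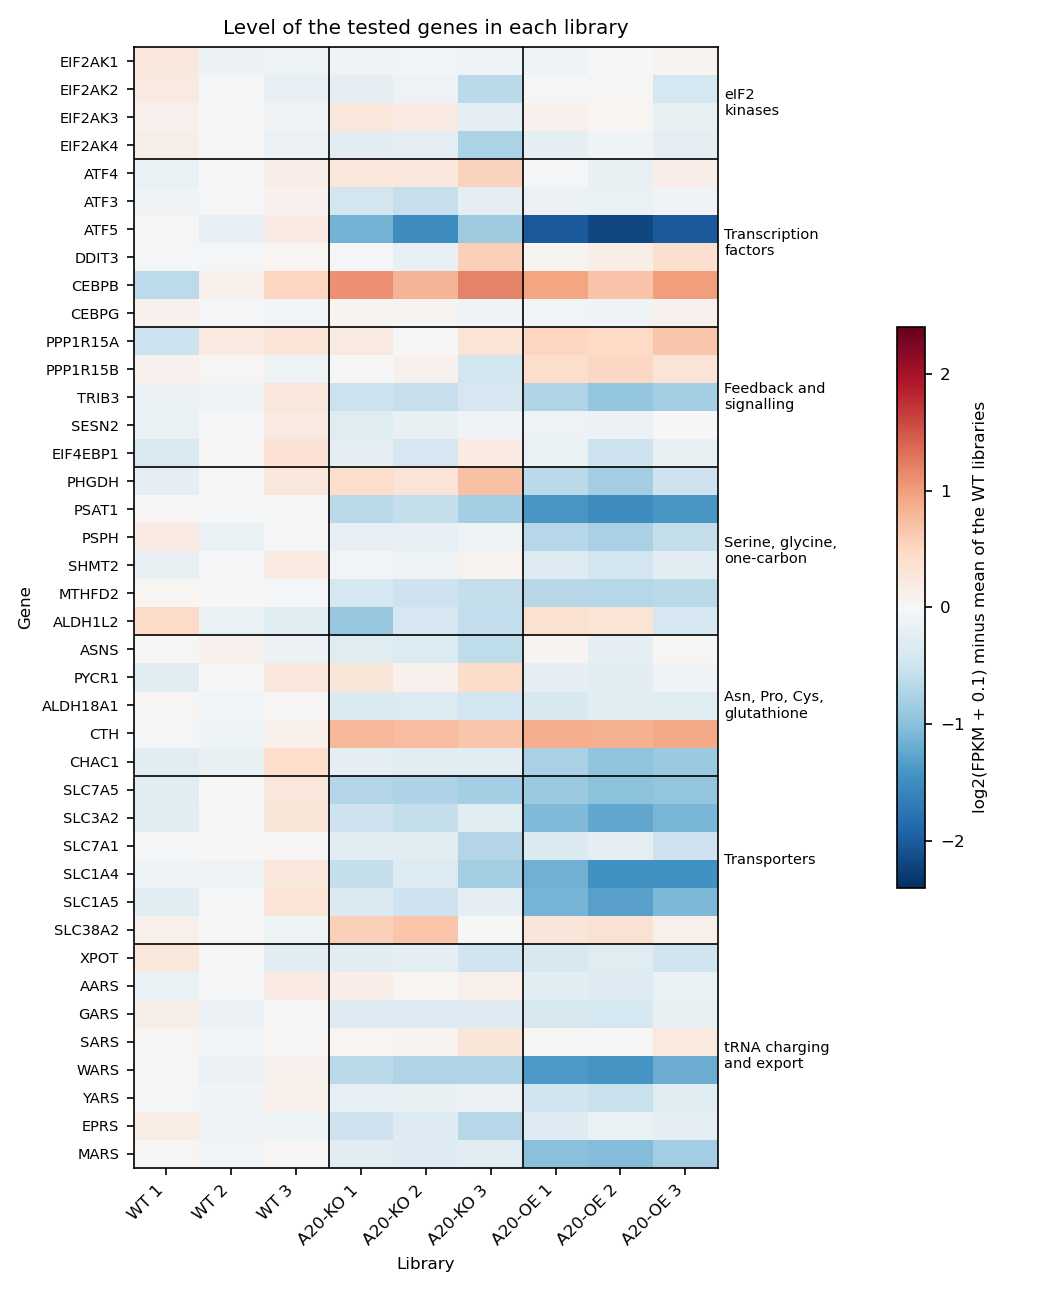
Level of the 40 tested members in the 9 libraries, as log2(FPKM + 0.1) minus the mean of the WT libraries, with rows grouped by role. ATF5 is the darkest row in the A20-OE columns, CEBPB and CTH are the 2 rows that are red in the A20-KO and A20-OE columns and passed the test, and PHGDH is red in A20-KO and blue in A20-OE.

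By role, the levels moved in different steps. Each role group was summarised in each library by the median of its members' log2 levels against the WT mean. For the 6 transporters this median lay between -0.49 and -0.40 in the A20-KO libraries and between -1.12 and -0.98 in the A20-OE libraries, against -0.19 to 0.26 in WT. For the 6 serine, glycine, and one-carbon enzymes it was -0.34 to -0.29 in A20-KO and -0.73 to -0.53 in A20-OE. The medians of the 3 groups therefore did not overlap for either role. Single members differed from them. PHGDH was highest in A20-KO, and PSPH, SHMT2, and SLC1A5 overlapped between WT and A20-KO. SLC38A2 had group means above WT. Over all 40 tested members the A20-KO libraries (-0.25 to -0.23) and the A20-OE libraries (-0.28 to -0.24) overlapped. No share over all genes was worked out for such medians. For the 8 genes of tRNA charging and export the A20-KO libraries (-0.28 to -0.27) were all below WT (-0.071 to 0.034), and the A20-OE libraries (-0.39 to -0.25) overlapped those of A20-KO. For the enzymes of asparagine, proline, cysteine, and glutathione metabolism the A20-KO libraries (-0.26 to -0.22) and the A20-OE libraries (-0.27 to -0.093) overlapped each other and were all below WT (-0.059 to 0.12). The kinases, the transcription factors, and the feedback genes overlapped between WT and both other groups.

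**Figure D2:**
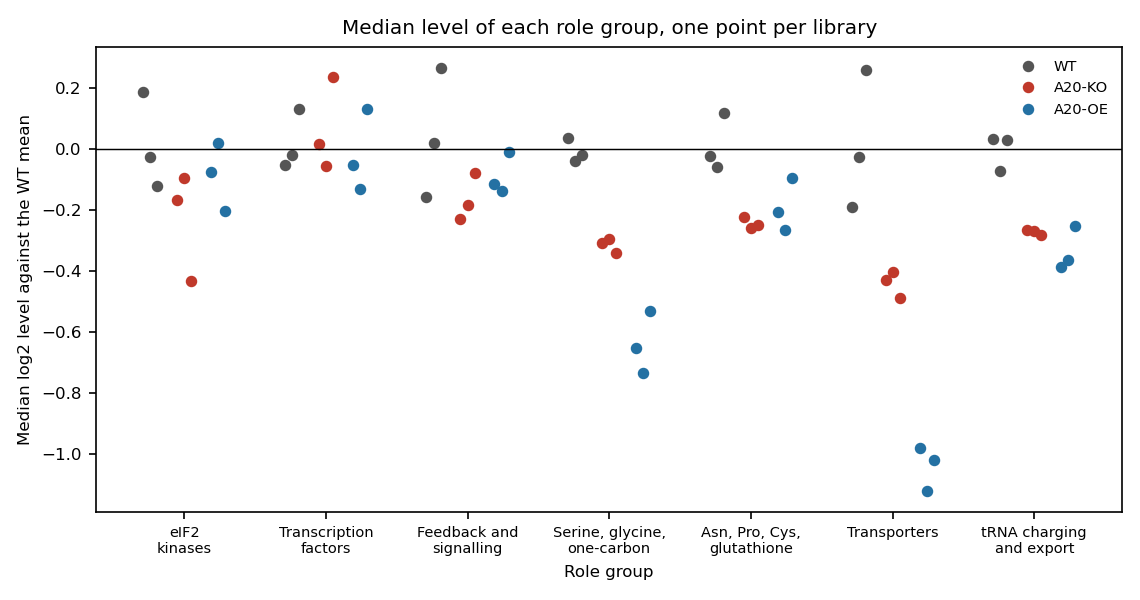
Median log2 level of each role group against the mean of the WT libraries, with 1 point for each library. The transporters and the serine group separate WT, A20-KO, and A20-OE, with A20-OE lowest, while the 3 groups overlap for the kinases.

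The promoters were searched for the letters through which ATF4 and C/EBP proteins are known to bind DNA. RefSeq promoters on GRCh38.p14 (250 bases before to 50 after the start) were found for 34 of the 42 members, in 54 sequences. EIF2AK1, NUPR1, EIF4EBP1, PSPH, SHMT2, ALDH1L2, PYCR1, and YARS had no entry. The chosen letters were the 9-letter C/EBP-ATF response element TGATGNAAT, read on both strands. It was found in 1 of the 54 member promoters (1.85%), that of GARS, and in 0.991% of all 35116 promoters. A shorter core, TGATGNAA, which any TGATGNAAT also holds, was searched as well, and it was found in 12 member promoters (22.2%) and in 3.62% of all promoters. Counted by gene, that is 12 of 34 members (35.3%) and 3.60% of 15843 protein-coding genes with a promoter. One more search, added after the data were seen, for the ER stress response element found it in 0 of the member promoters and in 0.0769% of all. Many of the members were listed as known ATF4 target genes, so a higher share is not independent evidence, and a match of letters is not a bound site.

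The windows below are the match in GARS and 7 matches to the shorter core, in the members that fell in at least 1 comparison and in ASNS, the textbook ATF4 target. They are given 5′ to 3′ on the gene's strand with up to 10 bases on either side, and the capitals mark the matched letters or their reverse complement.
GARS (chr7:30594834-30594862, plus strand): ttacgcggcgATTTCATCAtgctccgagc
ATF3 (chr1:212565206-212565233, plus strand): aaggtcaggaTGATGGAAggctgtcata
CHAC1 (chr15:40953252-40953279, plus strand): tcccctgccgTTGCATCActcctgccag
SLC3A2 (chr11:62881726-62881748, plus strand): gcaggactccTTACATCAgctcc
SLC1A4 (chr2:64989382-64989409, plus strand): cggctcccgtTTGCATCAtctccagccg
SLC1A5 (chr19:46784894-46784921, minus strand): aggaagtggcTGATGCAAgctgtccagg
MARS (chr12:57488054-57488081, plus strand): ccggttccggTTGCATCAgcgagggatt
ASNS (chr7:97872459-97872486, minus strand): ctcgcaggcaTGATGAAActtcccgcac

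The other 4 members with the shorter core were CEBPG, PPP1R15B, SLC7A1, and AARS. Members with and without it had similar medians between WT and A20-KO, at -0.33 in both, with 2 of 12 and 8 of 21 lower. Between A20-KO and A20-OE the medians were -0.19 and -0.085, with 5 of 12 and 4 of 21 lower. No test was made of these counts.

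The 4 eIF2 kinases, which each sense a different stress, did not pass in any comparison. EIF2AK1 (HRI, which senses heme and mitochondrial stress) had 46.3, 35.3, and 36.1 FPKM in WT, 36.5, 37.2, and 36.4 in A20-KO, and 36.3, 39.2, and 40.9 in A20-OE. EIF2AK2 (PKR, the sensor of double-stranded RNA) had 8.601, 7.16, and 6.44, then 6.19, 6.74, and 4.68, and then 7.08, 7.51, and 5.49. In both the groups overlapped. EIF2AK3 (PERK, the sensor in the endoplasmic reticulum) had 3.59, 3.31, and 3.13 in WT, 4.07, 3.82, and 2.83 in A20-KO, and 3.59, 3.47, and 2.96 in A20-OE. EIF2AK4 (GCN2, which senses uncharged tRNA) had 8.82, 7.84, and 7.24 in WT, 6.53, 6.79, and 4.62 in A20-KO, and 6.75, 7.35, and 6.72 in A20-OE. For EIF2AK4 the A20-KO values all lay below WT, and A20-KO replicate 3 was the lowest. The change from WT was -0.42 (SE 0.15, adjusted p = 0.0763), and it passed by limma-voom on recovered reads (0.0424) and with the replicate block (0.0415).

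ATF4 (ENSG00000128272, chr22:39519695-39522685, plus strand), the central factor of the response, was among the most abundant members. ATF4 mRNA was at 135, 151, and 169 FPKM in WT, 182, 181, and 220.2 in A20-KO, and 146, 133, and 169 in A20-OE. The A20-KO values lay above all of those of the other groups, which overlapped each other. The log2 change was 0.36 (SE 0.14, adjusted p = 0.0937) from WT to A20-KO and -0.38 (SE 0.14, adjusted p = 0.123) from A20-KO to A20-OE, so neither passed. Both passed under 3 alternatives, with adjusted p in limma of 0.0455 and 0.0428 when mitochondrial genes were left out of the scaling, 0.0207 and 0.0319 with a replicate block, and 0.0496 and 0.0392 with scaling to total recovered reads. ATF4 is controlled mainly at translation, which these libraries do not measure.

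ATF5 (ENSG00000169136, chr19:49928702-49933935, plus strand), a relative of ATF4 that also acts in mitochondrial stress, fell at each step. Its FPKM was 8.47, 7.46, and 9.82 in WT, 3.82, 2.95, and 4.66 in A20-KO, and 2.03, 1.79, and 2.05 in A20-OE, with no overlap between any of the groups. It changed on the log2 scale by -1.17 (SE 0.17, adjusted p = 0.00209) for A20-KO against WT, -0.91 (SE 0.17, adjusted p = 0.0167) for A20-OE against A20-KO, and -2.07 (SE 0.17, adjusted p = 5.42e-05) for A20-OE against WT. The second of these did not pass without A20-KO replicate 1 (0.0659), A20-OE replicate 1 (0.0672), or A20-OE replicate 2 (0.0778). ATF5 shares 21.2% of its exonic bases with NUP62 on the opposite strand, and the strand setting of the authors' counting is not given in the sources used here, so reads of the pair may be mixed.

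CEBPB (ENSG00000172216, chr20:50190734-50192689, plus strand), a C/EBP protein that can pair with ATF4, moved the other way. It had 22.9, 38.8, and 51.0 FPKM in WT, 76.4, 62.6, and 81.4 in A20-KO, and 69.2, 57.6, and 71.6 in A20-OE. The WT libraries were widely spread, yet all lay below those of both other groups. The log2 change was 1.03 (SE 0.26, adjusted p = 0.0198) from WT to A20-KO and 0.88 (SE 0.26, adjusted p = 0.0276) from WT to A20-OE, while A20-KO and A20-OE overlapped. The first call was lost without A20-KO replicate 1 (0.0665) or A20-KO replicate 3 (0.0715), and the second without WT replicate 2 (0.0582), A20-OE replicate 1 (0.0893), A20-OE replicate 2 (0.0515), or A20-OE replicate 3 (0.0874). Both were also lost with no filter (0.116 and 0.148) and with only the 2 groups compared (0.0734 and 0.0703).

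DDIT3 (CHOP), the factor that links lasting stress to cell death, had 3.91, 3.92, and 4.10 FPKM in WT, 3.90, 3.52, and 5.94 in A20-KO, and 4.16, 4.44, and 5.19 in A20-OE. It did not pass in any comparison (adjusted p = 0.682 for A20-KO against WT), and A20-KO replicate 3 was the highest library. DDIT3 shares 27.2% of its exonic bases with MARS on the opposite strand. ATF3, a stress-induced repressor, had 6.84, 7.15, and 7.81 in WT, 5.35, 4.94, and 6.27 in A20-KO, and 6.61, 6.49, and 6.80 in A20-OE, and its log2 change from WT to A20-KO was -0.40 (SE 0.11, adjusted p = 0.0304). That call was lost without WT replicate 2 (0.0729), WT replicate 3 (0.0716), A20-KO replicate 1 (0.0953), A20-KO replicate 2 (0.0894), or A20-OE replicate 1 (0.0550). CEBPG, the usual partner of ATF4, stayed between 11.8 and 13.7 FPKM in all 9 libraries.

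Among the feedback genes, TRIB3, a pseudokinase that binds ATF4 and limits it, was the one that passed. TRIB3 had 18.2, 18.3, and 24.03 FPKM in WT, 14.0, 13.5, and 15.0 in A20-KO, and 12.1, 10.4, and 11.4 in A20-OE. The groups did not overlap. The fitted log2 change was -0.49 (SE 0.12, adjusted p = 0.0212) for A20-KO against WT, a call lost without A20-KO replicate 1 (0.0676) or A20-KO replicate 2 (0.0642), and -0.82 (SE 0.12, adjusted p = 0.00122) for A20-OE against WT. The change from A20-KO to A20-OE was -0.33 (SE 0.12, adjusted p = 0.140).

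The regulatory subunits that return eIF2 to its active state did not pass. PPP1R15B, the constitutive one, had 29.9, 28.3, and 25.4 FPKM in WT, 28.1, 29.7, and 20.1 in A20-KO, and 37.1, 39.5, and 34.4 in A20-OE, so that A20-OE lay above both other groups, with log2 changes of 0.53 (SE 0.15, adjusted p = 0.0596) against A20-KO and 0.41 (SE 0.15, adjusted p = 0.0656) against WT. The latter passed without A20-KO replicate 3 (0.0118). PPP1R15A (GADD34), the induced one, had 9.13, 15.1, and 16.1 in WT, 15.2, 13.0, and 16.4 in A20-KO, and 18.8, 18.1, and 20.8 in A20-OE, again highest in A20-OE. Its change from WT to A20-OE was 0.56 (SE 0.20, adjusted p = 0.0635) and passed without WT replicate 3 (0.0358), and the change from A20-KO passed without WT replicate 1 (0.0448). SESN2, which restrains growth signalling through mTORC1, and EIF4EBP1, which restrains the translation factor eIF4E, overlapped between the groups in every comparison.

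The enzymes that make serine from the glycolytic intermediate 3-phosphoglycerate were lowest in A20-OE, all 3 of them. PHGDH (ENSG00000092621, chr1:119648411-119744226, plus strand), which catalyses the first step, had 12.7, 14.4, and 17.9 FPKM in WT, 19.9, 18.4, and 24.1 in A20-KO, and 9.45, 8.26, and 10.5 in A20-OE. The A20-KO libraries were the highest and the A20-OE libraries the lowest, with no overlap. The log2 change was 0.47 (SE 0.16, adjusted p = 0.0579) from WT to A20-KO, which did not pass, -1.13 (SE 0.16, adjusted p = 0.00481) from A20-KO to A20-OE, and -0.66 (SE 0.16, adjusted p = 0.0111) from WT to A20-OE. The first passed under 6 of the 20 alternatives, among them without WT replicate 3 (0.0236), by limma-voom (0.0279), and with the replicate block (0.0122). The last was lost with no filter (0.0566).

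PSAT1 (ENSG00000135069, chr9:78297143-78330093, plus strand), the aminotransferase of the second step, went down at both steps. It had 92.9, 88.6, and 91.0 FPKM in WT, 57.7, 60.7, and 51.6 in A20-KO, and 34.3, 31.6, and 34.3 in A20-OE. The spread within a group was narrow (means ± SD of 90.8 ± 2.12, 56.7 ± 4.65, and 33.4 ± 1.52, n = 3). Its log2 change came to -0.68 (SE 0.089, adjusted p = 0.00120) for A20-KO against WT, -0.76 (SE 0.089, adjusted p = 0.00268) for A20-OE against A20-KO, and -1.44 (SE 0.089, adjusted p = 1.39e-05) for A20-OE against WT. These 3 calls held under all 20 alternatives.

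PSPH, the phosphatase that completes serine, had 19.4, 15.1, and 16.4 FPKM in WT, 14.8, 14.8, and 15.6 in A20-KO, and 10.5, 9.80, and 11.4 in A20-OE. WT and A20-KO overlapped, and A20-OE was below both. It fell by 0.51 (SE 0.11, adjusted p = 0.0256) from A20-KO to A20-OE, a call lost without A20-KO replicate 1 (0.0801), A20-KO replicate 2 (0.0584), A20-KO replicate 3 (0.0744), A20-OE replicate 1 (0.0977), or A20-OE replicate 2 (0.103), and by 0.67 (SE 0.11, adjusted p = 0.00176) from WT. Its pseudogene PSPHP1 had a mean of 16.7 FPKM but at most 133 reads, so reads shared between them are uncertain.

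Of the mitochondrial one-carbon enzymes, MTHFD2, which oxidises the folate carried from serine, had 62.9, 61.9, and 58.9 FPKM in WT, 45.7, 43.1, and 41.2 in A20-KO, and 38.7, 37.9, and 38.8 in A20-OE. It fell by 0.50 (SE 0.079, adjusted p = 0.00273) from WT to A20-KO and by 0.67 (SE 0.079, adjusted p = 3.26e-04) from WT to A20-OE, and it shares 27.2% of its exonic bases with SLC4A5, at a mean of 0.217 FPKM, on the opposite strand. SHMT2, which splits serine into glycine and a one-carbon unit, was between 39.3 and 63.1 FPKM and lowest in A20-OE. Its change from WT, -0.34 (SE 0.12, adjusted p = 0.0573), passed without WT replicate 1 (0.0218). ALDH1L2, a folate dehydrogenase, was at low level (0.102 to 0.417 FPKM, 21 to 88 reads in a library) and passed in no comparison.

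**Figure D3:**
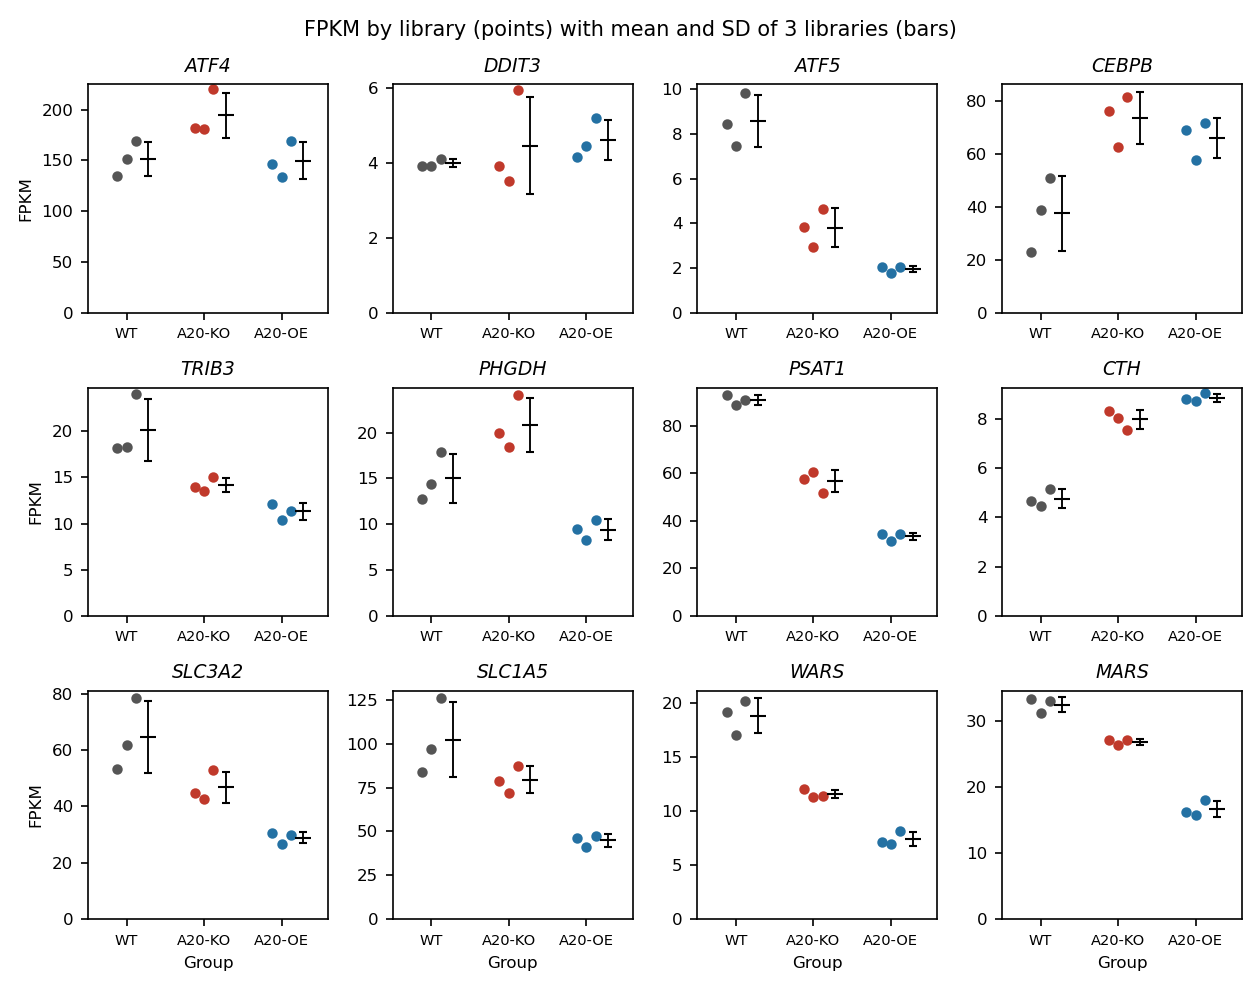
FPKM of 12 members in each library (points) by group, with the mean and SD of 3 libraries as bars, each axis starting at 0. PSAT1, SLC3A2, WARS, and MARS step down from WT to A20-KO to A20-OE without overlap, PHGDH is highest in A20-KO, and CTH is higher in both A20-KO and A20-OE than in WT.

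CTH (ENSG00000116761, chr1:70411218-70439851, plus strand), the enzyme that releases cysteine from cystathionine, was the member that rose with the smallest spread. It had 4.67, 4.44, and 5.17 FPKM in WT, 8.32, 8.05, and 7.55 in A20-KO, and 8.81, 8.71, and 9.03 in A20-OE. Every A20-KO and A20-OE library was above every WT library, and A20-OE was above A20-KO. The log2 change was 0.73 (SE 0.092, adjusted p = 0.00100) to A20-KO and 0.88 (SE 0.092, adjusted p = 1.68e-04) to A20-OE, and both calls held under all 20 alternatives. From A20-KO to A20-OE it was 0.15 (SE 0.092, adjusted p = 0.352).

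CHAC1, an enzyme that degrades glutathione and a strongly ATF4-dependent gene, had 5.60, 5.91, and 8.94 FPKM in WT, 5.70, 5.55, and 5.59 in A20-KO, and 3.82, 3.37, and 3.53 in A20-OE. The A20-KO values were nearly equal and overlapped WT, and the A20-OE values were below both. It fell by 0.64 (SE 0.17, adjusted p = 0.0463) from A20-KO to A20-OE, close to the threshold and lost without WT replicate 2 (0.0682), A20-KO replicate 1 (0.133), A20-KO replicate 2 (0.0965), A20-KO replicate 3 (0.112), A20-OE replicate 1 (0.115), A20-OE replicate 2 (0.156), or A20-OE replicate 3 (0.111), and by 0.88 (SE 0.17, adjusted p = 0.00362) from WT to A20-OE, which held under all 20 alternatives.

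The proline genes differed from each other. ALDH18A1, the first enzyme of proline synthesis, had 38.1, 35.8, and 38.0 FPKM in WT, 29.4, 29.6, and 26.9 in A20-KO, and 28.7, 31.0, and 30.5 in A20-OE, and fell by 0.38 (SE 0.081, adjusted p = 0.0105) from WT to A20-KO. Against WT the log2 change in A20-OE was -0.31 (SE 0.081, adjusted p = 0.0176), which did not pass without A20-OE replicate 1 (0.0733). PYCR1, the last enzyme, had 65.7, 80.2, and 96.4 in WT, 97.2, 85.4, and 109 in A20-KO, and 69.1, 66.0, and 74.8 in A20-OE, with its change from A20-KO to A20-OE at -0.47 (SE 0.15, adjusted p = 0.0868). That change passed without WT replicate 1 (0.0341).

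ASNS, which makes asparagine and is the classic target of ATF4, was low in these cells, between 0.809 and 1.40 FPKM, and passed in no comparison. Its values were 1.32, 1.40, and 1.16 in WT, 1.03, 1.00, and 0.809 in A20-KO, and 1.36, 1.08, and 1.31 in A20-OE. ASNS shares 44.6% of its exonic bases with AC079781.5 on the same strand, so reads that the authors' counting could not assign to 1 of the pair may be missing from it.

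Of the 6 transporters, SLC7A5 and SLC3A2 form the exchanger LAT1/4F2hc, which brings in large neutral amino acids such as leucine. SLC7A5 had 161, 197, and 236 FPKM in WT, 121, 117, and 111 in A20-KO, and 105, 98.4, and 101 in A20-OE. The WT libraries were widely spread and all lay above the others. Relative to WT the log2 change was -0.75 (SE 0.13, adjusted p = 0.00477) in A20-KO and -0.95 (SE 0.13, adjusted p = 8.55e-04) in A20-OE, and from A20-KO to A20-OE it was -0.20 (SE 0.13, adjusted p = 0.403).

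SLC3A2 (ENSG00000168003, chr11:62856102-62888875, plus strand), the heavy chain, had 53.3, 61.7, and 78.4 FPKM in WT, 44.8, 42.6, and 52.9 in A20-KO, and 30.4, 26.7, and 29.7 in A20-OE. The groups did not overlap, although A20-KO replicate 3 came close to the lowest WT library. The log2 change was -0.45 (SE 0.15, adjusted p = 0.0573) from WT to A20-KO, -0.69 (SE 0.15, adjusted p = 0.0254) from A20-KO to A20-OE, and -1.14 (SE 0.15, adjusted p = 5.45e-04) from WT to A20-OE. The first passed without WT replicate 1 (0.0219), and the second was lost without A20-KO replicate 1 (0.0767), A20-KO replicate 3 (0.0821), A20-OE replicate 1 (0.0855), A20-OE replicate 2 (0.108), or A20-OE replicate 3 (0.0674).

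SLC1A5 (ASCT2), a main importer of glutamine, had 83.9, 97.0, and 126 FPKM in WT, 79.0, 71.8, and 87.2 in A20-KO, and 46.4, 40.9, and 47.5 in A20-OE. WT and A20-KO overlapped, and the A20-OE libraries were well below both. It fell by 0.82 (SE 0.15, adjusted p = 0.0151) from A20-KO to A20-OE, lost without A20-KO replicate 1 (0.0606), A20-KO replicate 3 (0.0543), A20-OE replicate 1 (0.0636), or A20-OE replicate 2 (0.0739), and by 1.17 (SE 0.15, adjusted p = 5.45e-04) from WT to A20-OE. The change from WT to A20-KO, -0.35 (SE 0.15, adjusted p = 0.133), passed without WT replicate 1 (0.0458).

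SLC1A4 (ASCT1), a related carrier of serine and alanine at much lower level, had 1.49, 1.48, and 1.95 FPKM in WT, 1.06, 1.28, and 0.878 in A20-KO, and 0.678, 0.534, and 0.533 in A20-OE, with no overlap between the groups. The change was -0.78 (SE 0.19, adjusted p = 0.0420) from A20-KO to A20-OE, lost without WT replicate 2 (0.0694), A20-KO replicate 1 (0.117), A20-KO replicate 2 (0.109), A20-KO replicate 3 (0.0516), A20-OE replicate 1 (0.0895), A20-OE replicate 2 (0.140), or A20-OE replicate 3 (0.108), and -1.35 (SE 0.19, adjusted p = 9.56e-04) from WT to A20-OE. SLC7A1, the carrier of arginine and lysine, did not pass, and its change from WT to A20-OE of -0.35 (SE 0.13, adjusted p = 0.0757) passed without A20-KO replicate 3 (0.0169). From WT to A20-KO the change was -0.41 (SE 0.13, adjusted p = 0.0576) for SLC7A1 and -0.57 (SE 0.19, adjusted p = 0.0654) for SLC1A4. Both passed by limma-voom on recovered reads (0.0365 and 0.0232).

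SLC38A2 (SNAT2), which brings in small neutral amino acids, was the transporter with group means above WT. It had 134, 123, and 115 FPKM in WT, 183, 196, and 123 in A20-KO, and 152, 159, and 134 in A20-OE. A20-KO replicate 3 lay inside the WT range and the other A20-KO libraries above it. The change to A20-KO was 0.41 (SE 0.17, adjusted p = 0.126) and passed without A20-KO replicate 3 (0.0131).

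Of the 8 genes of tRNA charging and export, 3 fell from WT to A20-KO and 2 from A20-KO to A20-OE. From WT to A20-OE 4 fell. The shares of all genes tested that fell were 11%, 4.54%, and 15.4%. The 7 synthetases among the 8 load amino acids onto tRNA. WARS (ENSG00000140105, chr14:100333788-100376805, minus strand), for tryptophan, had 19.2, 17.1, and 20.3 FPKM in WT, 12.04, 11.3, and 11.4 in A20-KO, and 7.14, 6.95, and 8.21 in A20-OE, and the groups did not overlap. Its log2 change was -0.69 (SE 0.10, adjusted p = 0.00193) for A20-KO against WT, -0.64 (SE 0.10, adjusted p = 0.00870) for A20-OE against A20-KO, and -1.33 (SE 0.10, adjusted p = 3.52e-05) for A20-OE against WT. WARS passed all 3 comparisons under all 20 alternatives.

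MARS, for methionine, had 33.2, 31.1, and 33.0 FPKM in WT, 27.2, 26.3, and 27.0 in A20-KO, and 16.2, 15.7, and 18.0 in A20-OE. It went down mostly in the second step, with a log2 change of -0.69 (SE 0.083, adjusted p = 0.00284), and the first step of -0.27 (SE 0.083, adjusted p = 0.0435) was lost without WT replicate 1 (0.0579), WT replicate 2 (0.0696), WT replicate 3 (0.0739), A20-KO replicate 1 (0.102), A20-KO replicate 2 (0.101), A20-KO replicate 3 (0.0709), or A20-OE replicate 1 (0.0717). From WT to A20-OE the change was -0.96 (SE 0.083, adjusted p = 6.49e-05). MARS overlaps DDIT3 over 5.05% of its own exonic bases.

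EPRS, for glutamate and proline, had 51.8, 43.3, and 42.4 FPKM in WT, 32.4, 36.7, and 28.5 in A20-KO, and 37.0, 41.0, and 39.1 in A20-OE, and was lowest in A20-KO. It fell by 0.49 (SE 0.12, adjusted p = 0.0176) from WT to A20-KO, a call lost without A20-KO replicate 1 (0.0571) or A20-KO replicate 3 (0.0517). GARS, for glycine, had 56.9, 46.9, and 51.3, then 41.7, 41.5, and 41.8, and then 39.3, 38.5, and 45.3, and fell by 0.33 (SE 0.10, adjusted p = 0.0334) from WT to A20-OE, lost without WT replicate 1 (0.0591), WT replicate 3 (0.0624), A20-KO replicate 1 (0.0565), A20-OE replicate 1 (0.114), or A20-OE replicate 2 (0.105). From WT to A20-KO the change of GARS was of similar size, at -0.31 (SE 0.10, adjusted p = 0.0578), without overlap. It passed under 4 of the 20 alternatives. YARS, for tyrosine, had 20.6, 20.3, and 23.4 in WT, 18.6, 18.8, and 19.3 in A20-KO, and 15.4, 14.8, and 17.5 in A20-OE, and fell by 0.43 (SE 0.096, adjusted p = 0.00872) from WT to A20-OE.

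AARS, for alanine, SARS, for serine, and XPOT, which exports tRNA from the nucleus, passed in no comparison. AARS was between 38.1 and 53.9 FPKM, and its change of -0.35 (SE 0.11, adjusted p = 0.0721) from A20-KO to A20-OE passed without WT replicate 1 (0.0272) or WT replicate 3 (0.0394), that of -0.24 (SE 0.11, adjusted p = 0.116) from WT without WT replicate 1 (0.0287). XPOT was between 15.3 and 25.6 FPKM and passed against WT without WT replicate 3, in A20-KO (0.0332) and in A20-OE (0.0183). SARS was between 29.5 and 37.9 FPKM.

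**Figure D4:**
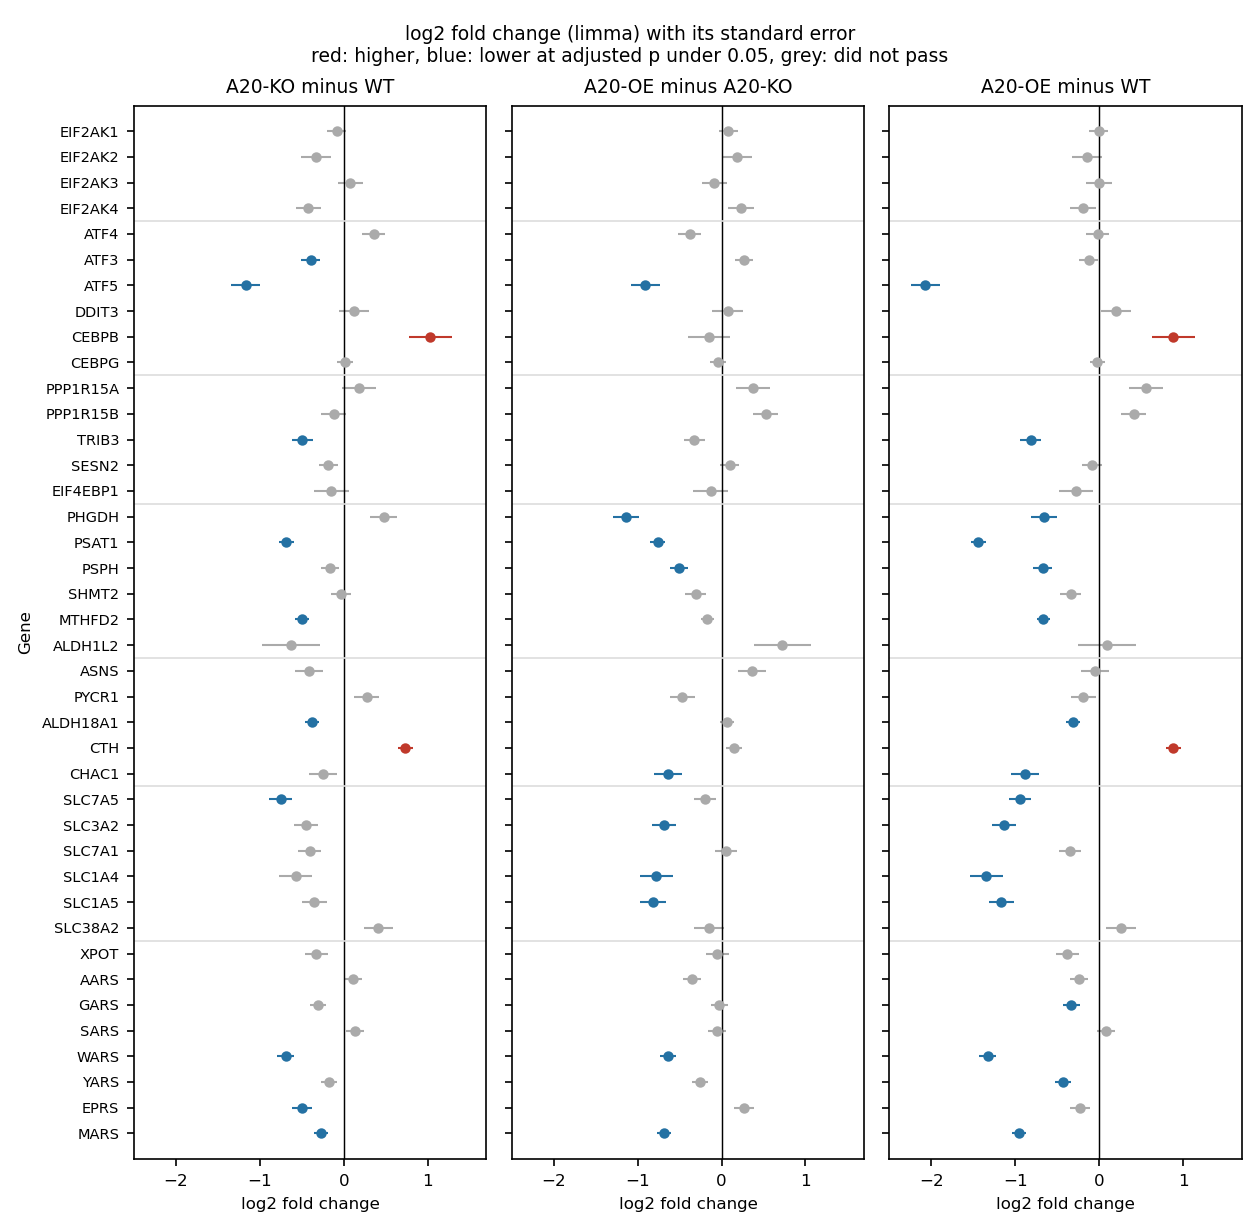
log2 fold change of the 40 tested members with its standard error in each of the 3 comparisons, coloured by whether it passed an adjusted p under 0.05. The middle panel holds 10 blue points and no red one, and ATF5 reaches -2.07 in the right panel.

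Further lists of genes related to the pathway were fitted in the same way. Of all genes tested, 11.3% rose and 11% fell from WT to A20-KO. From A20-KO to A20-OE these shares were 4.43% and 4.54%, and from WT to A20-OE 15.7% and 15.4%. They apply to every list below, and no list was tested against them. Of 13 further cytosolic synthetases, 7 fell and 1 rose from WT to A20-KO, 2 rose from A20-KO to A20-OE, and 8 fell and 2 rose from WT to A20-OE. IARS, for isoleucine, changed by -0.75 (SE 0.11, adjusted p = 0.00223) from WT to A20-KO. DARS, for aspartate, rose by 0.68 (SE 0.12, adjusted p = 0.0113) from A20-KO to A20-OE. Of 17 mitochondrial synthetases, 5 fell and 1 rose from WT to A20-KO, 1 fell from A20-KO to A20-OE, and 7 fell from WT to A20-OE, led by LARS2 at -0.78 (SE 0.098, adjusted p = 4.56e-04). The subunits of eIF2 and of its exchange factor eIF2B numbered 8. From WT to A20-KO, EIF2B1 (log2 change -0.73, SE 0.088, adjusted p = 8.16e-04) and EIF2S1, the subunit that the kinases phosphorylate (log2 change -0.72, SE 0.12, adjusted p = 0.00314), fell, and 5 of the 8 fell from WT to A20-OE.

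Of 16 further ATF4 targets that were tested, 4 rose and 3 fell from WT to A20-KO, 1 rose and 3 fell from A20-KO to A20-OE, and 2 rose and 4 fell from WT to A20-OE. GDF15, a secreted stress cytokine, had 105, 134, and 179.5 FPKM in WT, 351, 307, and 387 in A20-KO, and 139, 119, and 155 in A20-OE. The A20-KO libraries lay above all others, and the log2 change was 1.35 (SE 0.20, adjusted p = 0.00192) from WT to A20-KO and -1.34 (SE 0.20, adjusted p = 0.00642) from A20-KO to A20-OE. KLHL24 rose at each step, by 0.75 (SE 0.16, adjusted p = 0.0106) and then to 1.42 (SE 0.16, adjusted p = 2.60e-04) against WT. FAM129A had 2.94, 2.55, and 2.42 in WT, 0.752, 0.816, and 0.538 in A20-KO, and 0.674, 0.833, and 0.665 in A20-OE, a change of -1.78 (SE 0.18, adjusted p = 4.22e-04) from WT to A20-KO.

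Of 17 further one-carbon and amino acid enzymes, 6 fell and 2 rose from WT to A20-KO, 5 fell and 1 rose from A20-KO to A20-OE, and 8 fell and 1 rose from WT to A20-OE. The cytosolic folate enzyme MTHFD1 had 18.7, 19.5, and 19.8 FPKM in WT, 11.5, 11.5, and 10.3 in A20-KO, and 8.34, 8.74, and 8.32 in A20-OE. TYMS, which makes thymidylate from the same folate pool, changed by -1.25 (SE 0.14, adjusted p = 5.79e-04) from WT to A20-KO. ASS1, which makes argininosuccinate on the way to arginine, rose from 23.8, 25.5, and 30.4 in WT to 66.0, 61.8, and 72.9 in A20-KO (log2 change 1.33, SE 0.12, adjusted p = 2.63e-04).

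Of 9 further amino acid transporters tested, 4 fell and 1 rose from WT to A20-KO, 2 fell and 1 rose from A20-KO to A20-OE, and 5 fell from WT to A20-OE. SLC1A3, a glutamate and aspartate carrier, had 10.2, 8.97, and 8.90 FPKM in WT, 3.54, 3.84, and 3.20 in A20-KO, and 5.40, 5.62, and 4.91 in A20-OE, so it fell by 1.38 (SE 0.11, adjusted p = 1.57e-04) and then rose by 0.58 (SE 0.11, adjusted p = 0.0159). SLC7A8, a second light chain of SLC3A2, went the opposite way, by 0.97 (SE 0.13, adjusted p = 0.00146) and then -0.83 (SE 0.13, adjusted p = 0.00889). Of 10 genes of the mitochondrial stress relay and its chaperones and proteases, 4 fell from WT to A20-KO, 1 fell and 1 rose from A20-KO to A20-OE, and 4 fell from WT to A20-OE, among them HSPD1 (log2 change -0.82, SE 0.099, adjusted p = 3.75e-04) and HSPA9 (log2 change -0.75, SE 0.096, adjusted p = 5.07e-04). The 14 genes of the IRE1 and ATF6 arms of the endoplasmic reticulum response gave other calls in the first step, a difference that was not tested. XBP1, EDEM1, and PDIA4 rose from WT to A20-KO (XBP1: log2 change 0.34, SE 0.089, adjusted p = 0.0243), 6 fell from A20-KO to A20-OE, among them HERPUD1 (log2 change -0.53, SE 0.09, adjusted p = 0.0109), and 3 fell from WT to A20-OE. NARS and CARS are in both the synthetase and the ATF4 target lists.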

How the data were processed

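The 9 RNA-seq libraries came from HCT116 cells and were grouped by their labels into WT, A20-KO, and A20-OE (A20-KO-rescue), with 3 in each. The authors sequenced poly-A libraries, and per the submitters' processing notes used HISAT2 2.0.5 and featureCounts 1.5.0-p3. They deposited FPKM per gene. The genome build and the strand setting of counting are not given in the sources used here, and the coordinates of all 42 members match GENCODE 29 on GRCh38. Read numbers were worked back from each FPKM value with the gene's length (100% of values whole within 0.05 read), giving 23406222 to 24963691 reads a library.

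FPKM are not counts, so limma (version 3.58.1, R 4.3.3) with a variance trend was fitted on log2(FPKM + 0.1) to genes with a mean FPKM of 0.1 or more, all 9 libraries in 1 fit, with Benjamini-Hochberg adjustment over all 21636 genes. All members are accounted for, and values in every library are given for the kinases, ATF4, DDIT3, members past 2-fold, and the member with the smallest adjusted p in each role group and comparison; other members that passed are given likewise. From the other lists at most the 3 genes with the smallest adjusted p in a comparison are named. The members and lists were chosen with earlier results of these data known. Alternatives were pseudocounts of 0.01 and 1, no filter, a filter of 1, other scalings, no variance trend, the compared groups alone, a replicate block, limma-voom on recovered reads, a 1.5-fold threshold, and leaving out each library.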

Additional observations from a re-analysis of the deposited data

How the results depend on the processing

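No member changed direction in any called result under any alternative. From WT to A20-KO 7 of 12 calls held under all 20 alternatives, and 10 of 28 members not called passed under at least 1. From A20-KO to A20-OE these counts were 4 of 10 and 6 of 30. From WT to A20-OE they were 14 of 18 and 6 of 22. For most single genes above only the left-out libraries are given. Members higher from WT to A20-KO (2) numbered 1 with no filter or with only the 2 groups compared, 4 with scaling without mitochondrial genes or to total recovered reads (a scaling chosen after seeing the data), and 1 to 3 when 1 library was left out. Members lower (10) numbered 6 with only the 2 groups compared and 6 to 11 with a library left out. Members past 2-fold (2) numbered 1 with no filter, without mitochondrial genes in the scaling, or with only the 2 groups compared, 6 at 1.5-fold, and 1 to 2 with a library left out. From A20-KO to A20-OE, members higher (0) numbered 1 with a mean FPKM of at least 1 or by limma-voom, and 0 to 1 with a library left out. Members lower (10) numbered 4 with no filter and 4 to 12 with a library left out. Members past 2-fold (1) numbered 9 at 1.5-fold and 1 to 2 with a library left out. From WT to A20-OE, members higher (2) numbered 1 with no filter, 4 with a mean FPKM of at least 1 or by limma-voom, and 1 to 3 with a library left out. Members past 2-fold (6) numbered 15 at 1.5-fold. The cause of these shifts was not tested.

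All genes past 2-fold numbered 1512 from WT to A20-KO, and 472 with pseudocount 1 and 931 with a mean FPKM of at least 1, where fewer genes are tested. From A20-KO to A20-OE they numbered 517, and 155 with pseudocount 1, 235 with no filter, 289 with a mean FPKM of at least 1, and 242 to 612 with a library left out. From WT to A20-OE they numbered 2571, and 976 with pseudocount 1 and 1555 with a mean FPKM of at least 1. On recovered reads limma-voom called 1821, 647, and 2976 genes.

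With the replicate number as a block, members higher numbered 5 from WT to A20-KO, 1 from A20-KO to A20-OE, and 4 from WT to A20-OE, and members lower numbered 14, 12, and 19. The block was not used for the calls, since the labels give no shared culture or day and 4 of 9 same-number pairs, not all, correlated above 0.1. Same-number libraries correlated by 0.12 on average (-0.12 to 0.33) and the others by -0.059, and the 3 pairs of replicate 3 were all above 0.1 (0.16 to 0.33). With the shorter promoter core, the share of members was 35.3% in place of 2.94%. Depth limits NUPR1, CBS, and ALDH1L2 in particular.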
